A study of Arabidopsis thaliana with 9 samples.

Results

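The genes described here encode enzymes that break down the branched-chain amino acids leucine, isoleucine and valine. They are 10 genes out of the 32678 in the count tables of an Arabidopsis thaliana seedling experiment, and all 10 were among the 20288 genes with enough counts to be tested. They were listed by gene identifier for their known roles, with earlier results of these data known. Messenger RNA was sequenced from whole 7-day-old seedlings, about 10 pooled per sample, in 3 groups of 3 libraries. All seedlings grew in liquid medium under constant light at 23 °C with 0.5% sucrose and with 2.5 mM ammonium succinate as their nitrogen source. The salts were given for 15 min at 10 mM, as KCl to the first group of wild type, as KNO3 to the second, and as KNO3 to icpk. The icpk line is an inducible triple mutant (CPK10, CPK30 and CPK32, all kinases that calcium activates) that carries CPK10(M141G)-DHA, a CPK10 whose activity a small molecule can block. Neither the promoter of that transgene nor the number of lines is given in the sources used here. The protocols describe 10 µM of the inhibitor 3MBiP given 2 min before the salt, but the labels do not tie it to particular samples. As icpk with KCl was not analysed here, a difference in nitrate response, a difference present before nitrate and an effect of the inhibitor cannot be told apart.

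Branched-chain amino acid breakdown takes place mainly in mitochondria. A transaminase, BCAT2, first turns the amino acid into its keto acid. The branched-chain keto acid dehydrogenase complex, built from E1 alpha, E1 beta, E2 and E3 subunits, then makes an acyl-CoA. In leucine breakdown, isovaleryl-CoA dehydrogenase (IVD) and the biotin-dependent methylcrotonyl-CoA carboxylase (subunits MCCA and MCCB) follow. Electrons taken by IVD pass through the electron transfer flavoprotein to its ubiquinone oxidoreductase ETFQO and so to the respiratory chain. In Arabidopsis the route is known for being induced in the dark and in sugar starvation, when amino acids serve as respiratory fuel, and the names DIN3 and DIN4 stand for dark inducible. DIN3 is listed here as BCE2. The members are BCAT-2 (AT1G10070, BCAT2), the E1 alpha genes AT1G21400 and AT5G09300, the E1 beta genes DIN4 (AT3G13450) and BCDH BETA1 (AT1G55510), BCE2 (AT3G06850), IVD (AT3G45300), MCCA (AT1G03090), MCCB (AT4G34030) and ETFQO (AT2G43400).

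The libraries held 5987352 to 19564785 counts in genes. Wild type KCl replicate 3 was the shallowest and stood apart, since 80.5% of its alignment records were not unique and organelle genes took 4.89% of its gene counts, against at most 1.55% in the other libraries. In icpk with KNO3, CPK30 stood at 12.3% and CPK32 at 10.4% of the wild type KNO3 level, and CPK10 (listed as CDPK1) at 177%. Separate cultures within a group are not stated, so the spread behind the p-values may be technical. In whole seedlings, fewer cells of a type and less RNA per cell cannot be told apart.

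In wild type, most of the breakdown genes were lower with KNO3 than with KCl, and few passed the test. MCCB, DIN4 and the E1 alpha gene AT1G21400 fell, to 74.9%, 73.8% and 66.3% of the KCl level. No member rose with edgeR's quasi-likelihood test, and none rose with DESeq2. At an unadjusted p below 0.05, 7 members were lower and 1 was higher, against 12.1% and 9.36% of all tested genes. The 3 of 10 members that fell stand beside 2.39% of all tested genes that fell, and 3.56% of all tested genes rose. In 7 of 10 members every KNO3 library was below every KCl library, against 14.1% of all tested genes, and no member was above in every library, against 12.3%. The median log2 change over the 10 members was -0.36, against -0.02 over all tested genes.

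With KNO3, the icpk seedlings had more RNA of most of these genes than the wild type, and less of the other E1 alpha gene. BCAT-2 (BCAT2), AT1G21400, DIN4, BCE2, IVD, MCCA, MCCB and ETFQO rose, with log2 differences from 0.37 for ETFQO to 1.18 for BCAT-2. AT5G09300 fell, and BCDH BETA1 did not pass the test. The 8 members that rose stand beside 11.3% of all tested genes, and the 1 that fell beside 11.4%. The icpk libraries were all above the wild type libraries in 9 of 10 members and all below in 1, against 19.8% of all tested genes for each. The median log2 difference was 0.55 over the members and 0.01 over all tested genes. With the third library of every group left out, 3 members rose and none passed as lower, beside 643 and 765 of all genes. Both comparisons share the wild type KNO3 libraries, so opposite changes in them are not independent of each other.

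**Figure D1:**
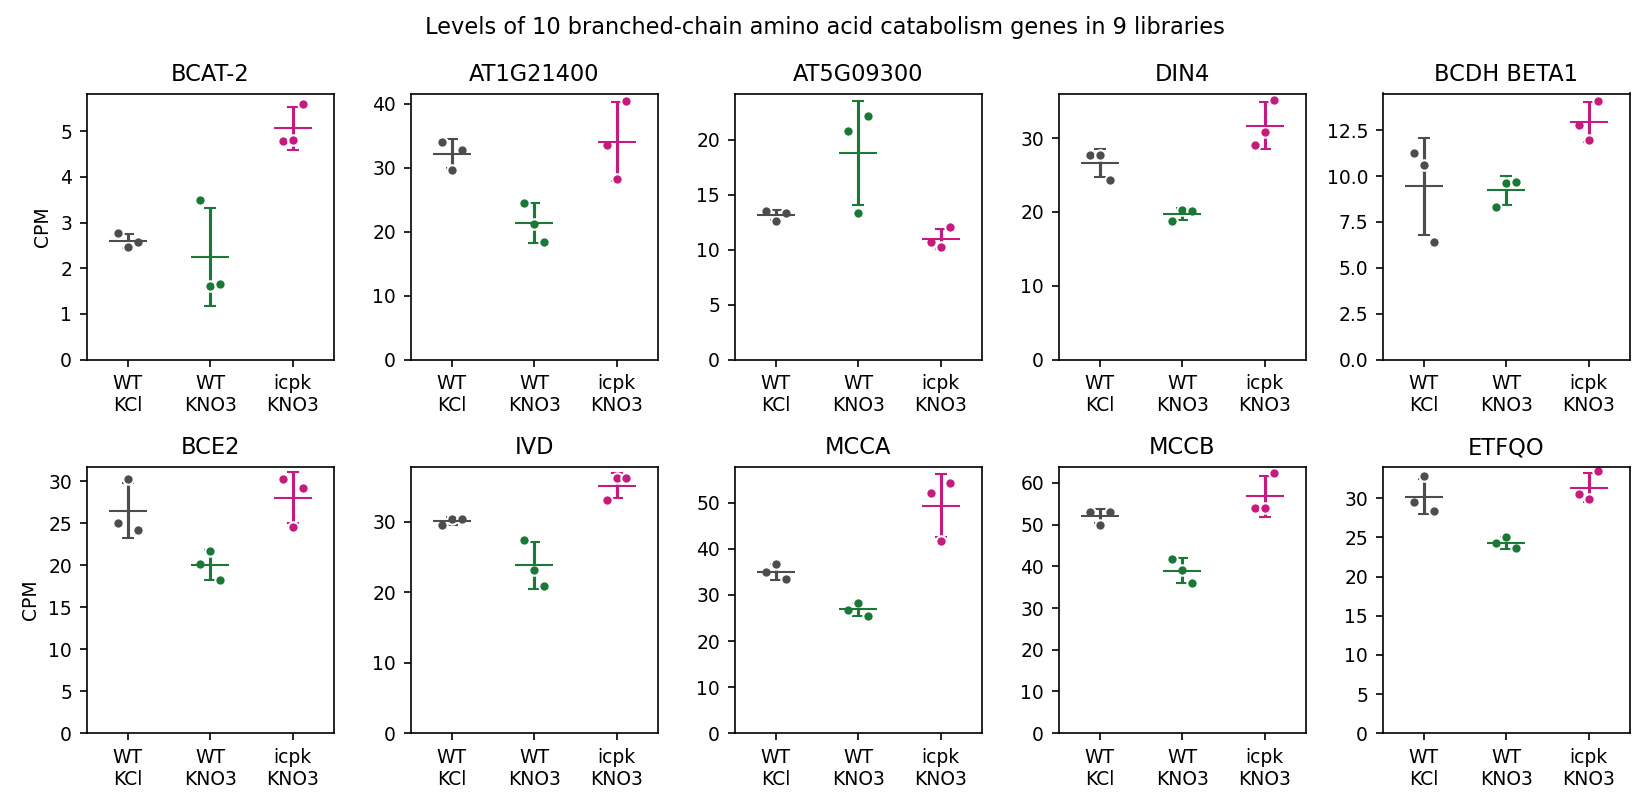
Levels of the 10 genes in CPM (linear axis from 0) for each of the 9 libraries, as points with the mean (dash) and SD (bar) of the 3 libraries of a group. In 7 panels the wild type KNO3 points all lie below the KCl points, and AT5G09300 is the panel in which the icpk points are the lowest.

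The transaminase BCAT-2 was the least abundant member. Its level, in CPM (counts scaled to a common library total, with TMM factors), was 2.77, 2.47 and 2.57 with KCl, 3.49, 1.61 and 1.65 with KNO3 in wild type, and 4.78, 4.81 and 5.60 in icpk. Every icpk library was above every wild type library, while the KNO3 and KCl libraries of the wild type overlapped. These levels rest on 14 to 91 counts per library. Against wild type KNO3, the icpk level was 2.26-fold higher (log2 difference 1.18 ± 0.27 SE, edgeR adjusted p = 0.0127). The difference from KCl in wild type was -0.22 ± 0.29, with a 95% interval from -0.87 to 0.42. The neighbouring paralog BCAT-1 (BCAT1), also a mitochondrial transaminase and not a member, passed the test in none of the 3 comparisons.

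The 250 bases before the start of BCAT-2 are shown as the upstream window of the member with the largest difference (RefSeq annotation, assembly TAIR10.1, chr1:3287837-3288086, plus strand). Capitals mark the letters ACGT, the core shared by many binding sites of bZIP transcription factors, a family that includes regulators of this route under starvation.
BCAT-2: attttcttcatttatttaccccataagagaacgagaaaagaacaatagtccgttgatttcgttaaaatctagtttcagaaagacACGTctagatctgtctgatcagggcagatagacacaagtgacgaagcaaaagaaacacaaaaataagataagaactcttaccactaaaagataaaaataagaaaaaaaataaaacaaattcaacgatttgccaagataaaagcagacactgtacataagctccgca

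The 2 E1 alpha genes, whose products take up the keto acid as alternative forms of the same subunit, differed between icpk and wild type KNO3 in opposite directions. AT1G21400 stood at 34.1, 29.6 and 32.8 CPM with KCl, 24.5, 21.2 and 18.3 with KNO3 in wild type, and 33.5, 28.2 and 40.5 in icpk. Its wild type KNO3 libraries were the 3 lowest of the 9. The log2 change was -0.59 ± 0.15 with KNO3 in wild type (adjusted p = 0.0421, edgeR) and 0.67 ± 0.15 in icpk against wild type KNO3 (adjusted p = 0.0100). AT5G09300 stood at 13.5, 12.6 and 13.4 CPM with KCl, 20.8, 13.4 and 22.2 with KNO3 in wild type, and 10.7, 10.3 and 12.0 in icpk. Its icpk libraries were the 3 lowest, and replicate 2 of wild type KNO3 lay among the KCl libraries. The change with KNO3 was 0.51 ± 0.18 (adjusted p = 0.121), and the difference of icpk from wild type KNO3 was -0.77 ± 0.17 (adjusted p = 0.0117), both with edgeR.

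Within a library, the ratio of AT5G09300 counts to AT1G21400 counts was 0.397, 0.426 and 0.408 with KCl. It was 0.850, 0.631 and 1.21 with KNO3 in wild type, and 0.319, 0.364 and 0.297 in icpk. The 3 groups did not overlap, and KNO3 in wild type had the highest ratios. Each of the 3 pairs of groups gave p = 0.1 in a two-sided exact permutation test of the log2 ratio, which is the smallest p that 3 against 3 libraries allow. Adjusted over the 15 ratio tests made here, that p is 0.136. Scaled per kb of coding length, AT5G09300 supplied 30.6% to 32.1% of the E1 alpha level with KCl, 41.2% to 57.4% with KNO3 in wild type, and 24.8% to 28.8% in icpk. These shares depend on the length used. The annotated exons hold 3011 bases for 1575 coding bases in AT1G21400 and 1926 for 1419 in AT5G09300, so scaling by exon length would give AT5G09300 larger shares.

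AT1G21400 has no other annotated gene in the window before its start, which is shown because it holds the letters of 2 motifs (TAIR10.1, chr1:7492963-7493212, plus strand). Capitals mark ACGT and, read on the other strand, TATCCA, a motif known from sugar-responsive promoters.
AT1G21400: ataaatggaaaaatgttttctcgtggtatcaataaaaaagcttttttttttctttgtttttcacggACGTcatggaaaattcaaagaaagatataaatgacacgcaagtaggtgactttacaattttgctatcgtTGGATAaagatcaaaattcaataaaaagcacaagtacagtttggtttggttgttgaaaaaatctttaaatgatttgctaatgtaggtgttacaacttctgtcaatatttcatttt

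Of the E1 beta genes, which encode the partner subunit of E1 alpha, DIN4 was the more abundant. DIN4 stood at 27.7, 27.7 and 24.4 CPM with KCl, 18.7, 20.3 and 20.2 with KNO3 in wild type, and 29.0, 30.8 and 35.2 in icpk. The 3 groups did not overlap, with wild type KNO3 lowest and icpk highest. DIN4 fell with KNO3 (log2 change -0.44 ± 0.10, adjusted p = 0.0331) and was higher in icpk than in wild type KNO3 (0.68 ± 0.10, adjusted p = 0.00197), both with edgeR. BCDH BETA1 stood at 11.3, 10.6 and 6.42 CPM with KCl, 8.33, 9.64 and 9.69 with KNO3 in wild type, and 12.8, 12.0 and 14.1 in icpk. Its icpk libraries were the 3 highest, and KCl replicate 3, the shallow library, was the lowest. Its difference between icpk and wild type KNO3 was 0.49 ± 0.18 (adjusted p = 0.0702, edgeR), with an interval from 0.10 to 0.88, and its change with KNO3 was -0.08 ± 0.18.

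BCE2 encodes the E2 subunit, which carries the acyl group on to coenzyme A. It stood at 25.1, 30.3 and 24.2 CPM with KCl, 20.2, 21.7 and 18.2 with KNO3 in wild type, and 30.3, 24.6 and 29.2 in icpk. The wild type KNO3 libraries were the 3 lowest, and the KCl and icpk libraries overlapped. BCE2 was higher in icpk than in wild type KNO3 (log2 difference 0.48 ± 0.12, adjusted p = 0.0203, edgeR), and its change with KNO3 was -0.41 ± 0.13 (adjusted p = 0.0854, edgeR). Per kb of coding length, the summed E1 alpha level divided by the summed E1 beta level was 0.895 ± 0.144 (SD, n = 3) with KCl, 0.998 ± 0.189 with KNO3 in wild type and 0.704 ± 0.0643 in icpk. The icpk ratios lay below those of both wild type groups, with exact permutation p = 0.1 for each, again the smallest possible. The size of this ratio also depends on the use of coding rather than exon length.

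The windows before BCE2 and DIN4 shared the longest run of letters among the 45 pairs of the 10 upstream windows. The run of 13 letters, in capitals, begins 56 bases before the start of BCE2 and 124 bases before that of DIN4, on the strand of each gene. The DIN4 window also lies over a neighbouring gene, AT3G13460, and 6 of the 10 windows are free of other annotated genes. The run is shown with neighbouring bases, from chr3:2160704-2160733 for BCE2 and chr3:4384539-4384568 for DIN4 (TAIR10.1, minus strand for both).
BCE2: tccgtgatATTGCTGATGTGGcatagataa
DIN4: ttgccgaaATTGCTGATGTGGttaaaatcc
Of 27443 upstream windows of nuclear protein-coding genes, 2 held this run, namely these. The next longest run shared by a pair of members was 12 letters, and the median over pairs was 9. The run was picked as the longest shared by a pair of these windows before it was counted, so these 2 hits were fixed in advance. A function of the run was not tested.

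Searched on both strands of 250 bases, CACGTG was in none of the 10 windows, against 6.49% of all. ACTCAT, known from promoters induced by low osmolarity and proline, was in 1 (BCDH BETA1), against 12.3%, and TATCCA was in 1 (AT1G21400), against 13.6%. ACGT, which CACGTG contains, was in 4 (MCCB, DIN4, AT1G21400 and BCAT-2), against 44.1%. ACGT was added to the search after the others had been counted. A match is a description of letters and not evidence of binding.

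IVD and ETFQO stand at either end of an electron path in leucine breakdown, and their changes were alike in direction. IVD stood at 29.5, 30.4 and 30.4 CPM with KCl, 27.3, 23.2 and 20.8 with KNO3 in wild type, and 33.0, 36.1 and 36.2 in icpk, and the groups did not overlap. It was 1.48-fold higher in icpk than in wild type KNO3 (log2 difference 0.56 ± 0.11, adjusted p = 0.00563, edgeR). Its change with KNO3 in wild type was -0.34 ± 0.11 (adjusted p = 0.0999, edgeR). ETFQO stood at 29.5, 32.8 and 28.4 CPM with KCl, 24.2, 25.0 and 23.6 with KNO3 in wild type, and 30.6, 29.9 and 33.5 in icpk. The wild type KNO3 libraries of ETFQO were the 3 lowest, and those of KCl and icpk overlapped. Its log2 changes were -0.32 ± 0.09 with KNO3 (adjusted p = 0.0724) and 0.37 ± 0.09 in icpk against wild type KNO3 (adjusted p = 0.0178), the smallest of the 8 rises.

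MCCA encodes the biotin-carrying subunit of methylcrotonyl-CoA carboxylase and MCCB the other subunit. MCCA stood at 34.9, 36.8 and 33.4 CPM with KCl, 26.8, 28.3 and 25.5 with KNO3 in wild type, and 52.2, 41.6 and 54.4 in icpk. No group overlapped another, and the order was wild type KNO3, KCl, icpk. MCCA was 1.83-fold higher in icpk than in wild type KNO3 (log2 difference 0.88 ± 0.11, adjusted p = 0.000988), the smallest adjusted p among the members. Its change with KNO3 in wild type was -0.38 ± 0.11 (adjusted p = 0.0722, edgeR). MCCB stood at 53.1, 50.0 and 53.0 CPM with KCl, 41.9, 39.0 and 36.0 with KNO3 in wild type, and 53.9, 54.0 and 62.5 in icpk. Its groups also did not overlap, although the lowest icpk library was within 1 CPM of the highest KCl library. It fell with KNO3 (-0.42 ± 0.09, adjusted p = 0.0258) and was higher in icpk than in wild type KNO3 (0.54 ± 0.09, adjusted p = 0.00349), with edgeR.

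The MCCA to MCCB count ratio was 0.674 ± 0.0549 (SD, n = 3) with KCl, 0.692 ± 0.0454 in wild type KNO3 and 0.870 ± 0.0989 in icpk. The icpk ratios lay above those of either wild type group, with exact permutation p = 0.1 for each. The ratio of BCAT-2 to BCAT-1 counts was 1.10, 1.07 and 1.31 in icpk, and 0.347 to 1.02 over the wild type libraries. The ratio of BCDH BETA1 to DIN4 counts was 0.351 ± 0.0771 (SD, n = 3) with KCl, 0.467 ± 0.0194 with KNO3 in wild type and 0.410 ± 0.0273 in icpk. The wild type KNO3 ratios lay above the others, with exact permutation p = 0.1 against each group. The lowest of them was 0.445, close to the highest icpk ratio of 0.440. The shallow KCl replicate 3 had the lowest ratio, 0.263.

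**Figure D2:**
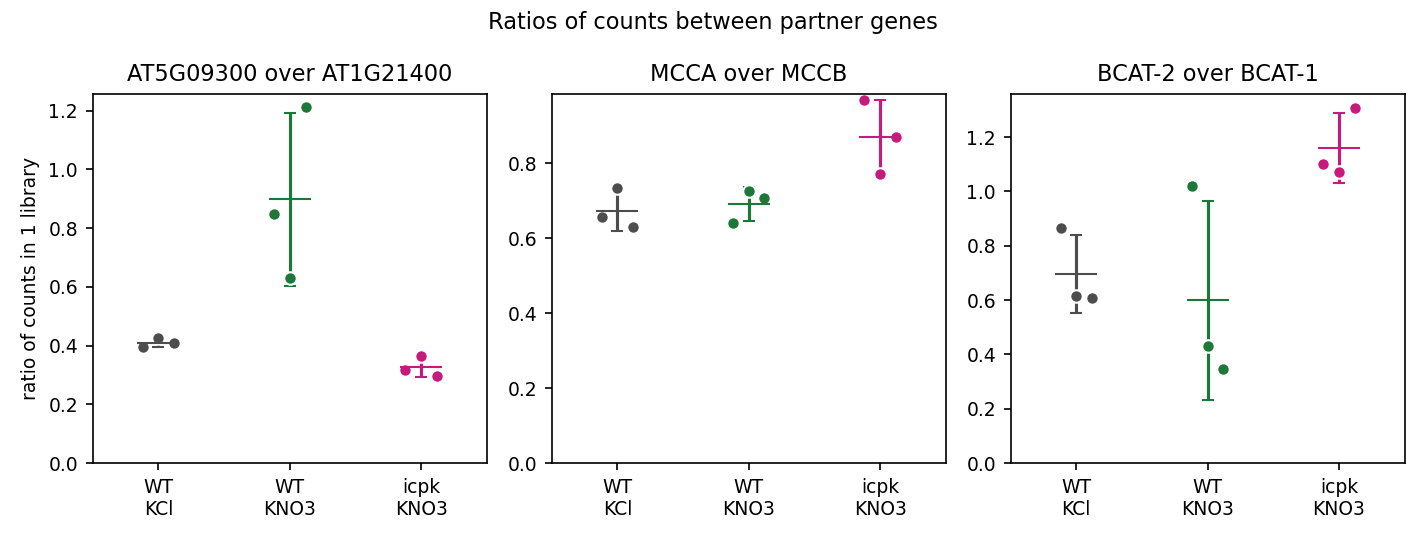
Count ratios within a library for 3 pairs of partner genes (linear axes from 0), with points for libraries, a dash for the mean and bars for the SD of 3 libraries. The AT5G09300 to AT1G21400 ratio is highest in wild type KNO3, at 0.631 to 1.21, and the MCCA to MCCB ratio is highest in icpk, at 0.772 to 0.969.

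Against wild type with KCl, the icpk libraries with KNO3 differed in 1 member by the test. MCCA was 1.41-fold higher in icpk (log2 difference 0.49 ± 0.11, adjusted p = 0.0236, edgeR), beside 3.15% of all tested genes that were higher. No member was lower by edgeR or DESeq2, and none had an unadjusted p below 0.05 in that direction. Of all tested genes, 3.84% were lower by edgeR and 11.6% were lower at an unadjusted p below 0.05. BCAT-2 was 1.93-fold higher (0.95 ± 0.28, adjusted p = 0.0664, edgeR). The 95% interval of the log2 difference was -0.24 to 0.40 for AT1G21400 and -0.16 to 0.25 for ETFQO, so levels equal to those with KCl are not shown. All icpk libraries lay above all KCl libraries in 6 members, against 14.1% of all tested genes, and below in AT5G09300, against 13.6%.

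**Figure D3:**
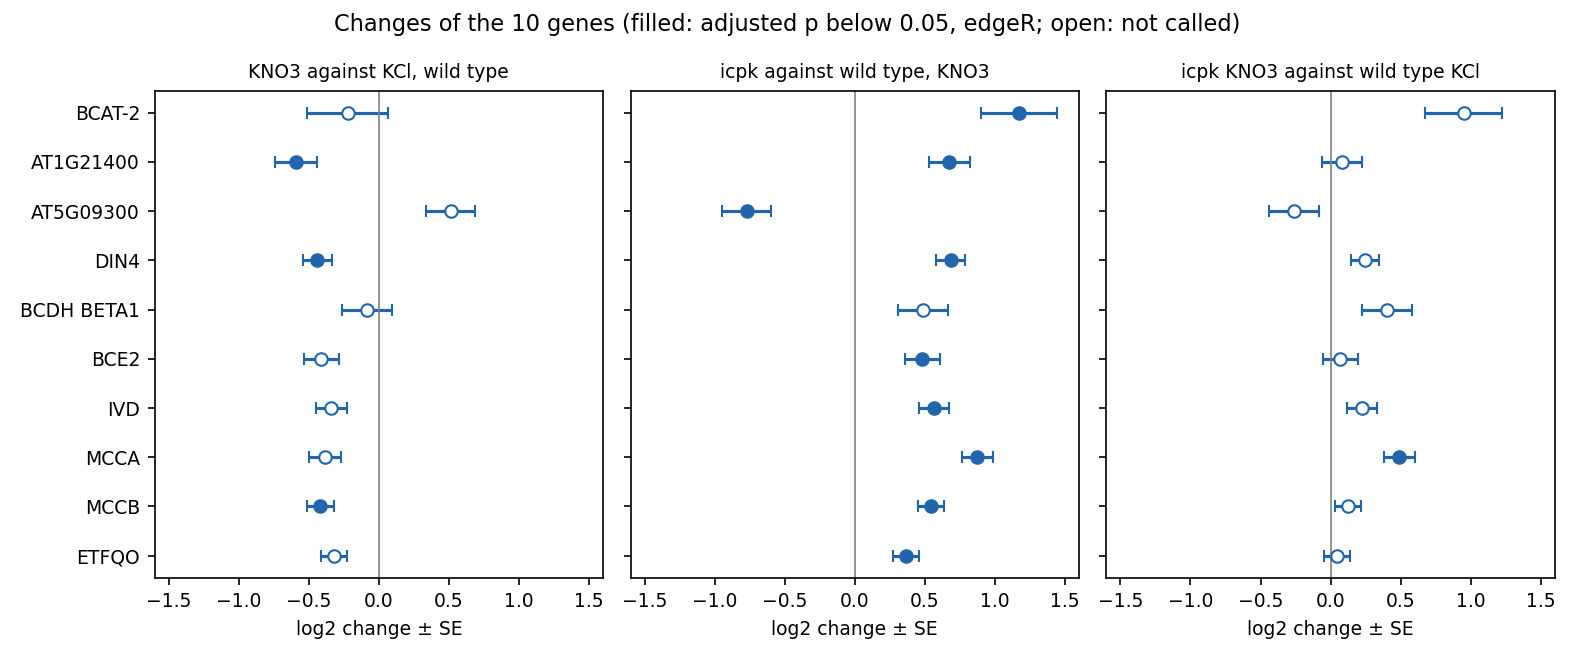
Log2 changes of the 10 genes with standard errors in the 3 comparisons, from edgeR fits of 9 libraries; filled points have an adjusted p below 0.05. In the middle panel 8 points are filled to the right of 0 and AT5G09300 is filled to the left at -0.77, and in the left panel 3 points are filled, all to the left.

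Leaving out a library moved several calls. In wild type with KNO3, the fall of AT1G21400 did not pass without any 1 of the 6 wild type libraries or icpk replicate 1 (adjusted p from 0.0537 to 0.146). That of DIN4 did not pass without KCl replicate 1 or 2, KNO3 replicate 1 or 3, or icpk replicate 2 (0.0504 to 0.136). That of MCCB did not pass without KCl replicate 1, 2 or 3 or KNO3 replicate 3 (0.0653 to 0.0977). AT5G09300 rose when wild type KNO3 replicate 2 was left out (log2 change 0.71, adjusted p = 0.00553), and MCCA fell without icpk replicate 2 (adjusted p = 0.0362). In icpk against wild type KNO3, BCE2 did not pass without wild type replicate 1 or 3 or icpk replicate 1 or 3 (0.0618 to 0.0768), and ETFQO did not without wild type replicate 1 or 3 or icpk replicate 3 (0.0552 to 0.0611). BCDH BETA1 passed without KCl replicate 3 (0.0246). Against KCl, the rise of MCCA did not pass without any 1 KCl library or icpk replicate 1 or 3 (0.0587 to 0.0913), and that of BCAT-2 passed without wild type KNO3 replicate 1 (0.0136).

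Across the 9 libraries, the levels of 8 members varied together, BCDH BETA1 followed them less closely, and AT5G09300 ran the other way. As a description of libraries that share 3 groups, the correlation of log2 CPM with the mean profile of the other members was 0.94 for MCCA and DIN4, 0.93 for MCCB, 0.91 for ETFQO and 0.90 for IVD. It was 0.88 for AT1G21400, 0.84 for BCE2, 0.81 for BCAT-2 and 0.57 for BCDH BETA1, and it was -0.80 for AT5G09300. Among the 36 pairs of the other 9 members the correlation ranged from 0.36 (BCDH BETA1 with AT1G21400) to 0.97 with a median of 0.83, without BCDH BETA1 the lowest was 0.59, and all 9 pairs with AT5G09300 lay between -0.81 and -0.48. The closest pair was MCCB with AT1G21400, at 0.97.

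Levels were also scaled per kb of coding length, although the annotated exons are longer by unlike factors. They hold 3011 bases for 1575 coding bases in AT1G21400 and 1360 for 1077 in DIN4. The order of genes given next therefore depends on the length used, and levels per kb of exon were not computed. By coding length, MCCB was the most abundant in wild type with KNO3 at 22.1 ± 1.66 CPM per kb (SD, n = 3). IVD followed at 19.3 ± 2.67 and DIN4 at 18.3 ± 0.797, which did not differ beyond their spread. BCE2 (13.8 ± 1.22), AT1G21400 (13.5 ± 1.95), AT5G09300 (13.2 ± 3.35), ETFQO (12.8 ± 0.371) and MCCA (12.2 ± 0.641) followed, and the ranges of mean ± SD of neighbours in this order overlapped. BCDH BETA1 stood at 8.71 ± 0.728 and BCAT-2 lowest at 1.93 ± 0.921. In icpk MCCA was at 22.4 ± 3.10 CPM per kb, next to AT1G21400 at 21.6 ± 3.91, while AT5G09300 was at 7.75 ± 0.654, below every member but BCAT-2.

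The 8 other genes whose levels were most like the mean member profile over the 9 libraries had correlations of 0.97 to 0.98. They were AT2G27385, CDS5, ACD32.1, AT3G59980, AAK6, AT5G13950, ACX4 and AT3G10020. ACX4 encodes a peroxisomal acyl-CoA oxidase of short-chain fatty acid breakdown, with 116 CPM with KCl, 96.4 with KNO3 in wild type and 136 in icpk. CDS5 encodes a CDP-diacylglycerol synthase of phospholipid synthesis, at 20.1, 15.8 and 24.0 CPM in the same order. The likeness was the rule by which these genes were chosen, so no test is given.

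The rest of the catabolic route is given from a list of further genes, which also holds MGL, an enzyme that acts on methionine. Of 14 further genes, which include the E3 subunits, both electron transfer flavoprotein subunits and the valine branch, none passed the test with KNO3 in wild type by edgeR or DESeq2, and 1 had an unadjusted p below 0.05. In icpk against wild type KNO3, 2 of 14 rose, a share near the 11.3% of all tested genes, and none fell by edgeR or DESeq2, and no gene was lower at an unadjusted p below 0.05. These were MGL, methionine gamma-lyase, which feeds methionine into isoleucine metabolism (0.79 ± 0.19, adjusted p = 0.0165), and AT4G16800, a putative enoyl-CoA hydratase (0.48 ± 0.14, adjusted p = 0.0304). The median log2 difference of these 14 was 0.13. Without wild type KNO3 replicate 1 neither gene passed, and AT4G16800 also missed without wild type KNO3 replicate 3 or any 1 icpk library (adjusted p from 0.0553 to 0.109 over these 5).

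Genes listed for branched-chain amino acid synthesis, which runs in plastids, also rose in part, and roles of theirs in other routes were not separated. Of 17, 6 rose, beside 11.3% of all tested genes, in icpk against wild type KNO3 and 11 did not pass, with a median of 0.27. Among them were AT3G23940, dihydroxyacid dehydratase (0.42 ± 0.10, adjusted p = 0.0167), and IMD3, an isopropylmalate dehydrogenase of leucine synthesis (0.51 ± 0.13, adjusted p = 0.0174). VAT1, the regulatory subunit of acetohydroxyacid synthase, rose by 0.43 ± 0.11 (adjusted p = 0.0197), and OMR1, the threonine deaminase that opens isoleucine synthesis, by 0.40 ± 0.10 (adjusted p = 0.0200). With KNO3 in wild type none of the 17 passed by edgeR and 1 rose by DESeq2, while 4 were lower and 1 higher at an unadjusted p below 0.05, and the median was -0.23. The count of 6 rises became 0 without wild type KNO3 replicate 1 and 3 without icpk replicate 1. It became 1 without wild type KNO3 replicate 3 or icpk replicate 3. Without these libraries in the order given, the rises over all tested genes went from 2286 to 1082, 1437, 1328 and 1445. Without wild type KNO3 replicate 2, 6 of the 17 fell with KNO3 in wild type. Over all tested genes, the falls went from 485 to 1231 without that library. Without icpk replicate 3, 1 of the 17 rose with KNO3 in wild type.

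Of 10 genes for the breakdown of other amino acids, 8 did not pass with KNO3 in wild type and 2 fell, beside 2.39% of all tested genes. The 2 were GDH1 (-0.80 ± 0.11, adjusted p = 0.00172) and GDH2 (-1.07 ± 0.17, adjusted p = 0.00418), the glutamate dehydrogenases that release ammonium from glutamate. In icpk against wild type KNO3, 4 of the 10 rose and 1 fell, beside 11.3% and 11.4% of all tested genes. GDH1 was 1.76-fold and GDH2 1.84-fold higher, and PDS1, which acts in tyrosine breakdown, was 1.54-fold higher. AT5G38710, a proline dehydrogenase, fell to 50.1% of the wild type level (adjusted p = 0.0140, edgeR). With the third library of every group left out, 1 of the 10 rose in this comparison and 0 fell, beside 643 and 765 of all genes.

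Markers of darkness and starvation are known to be induced when light or sugar is short. Of 10 tested, 5 fell with KNO3 in wild type (median -0.70 over the 10) and 9 rose in icpk against wild type KNO3 (median 1.39). Over all tested genes, 2.39% fell and 11.3% rose in these comparisons. AT3G59940, a kelch F-box protein also called KMD4, was 7.64-fold higher in icpk than in wild type KNO3, SEN1 was 5.15-fold, DIN10 3.87-fold and AT2G33830 3.24-fold higher. The 5 falls with KNO3 became 2 without KCl replicate 2 or KNO3 replicate 1, and 3 without KNO3 replicate 3. The 485 falls over all tested genes became 141, 125 and 183 without these libraries in the order given. These markers were part of earlier results on these libraries, so their counts and medians describe these data and test nothing. Of 11 listed bZIP factors and SnRK1 kinase subunits, 6 were tested. In icpk against wild type KNO3, 1 rose, beside 11.3% of all tested genes, and 5 did not pass. The median over the 6 was -0.04, with 3 above 0. The 1 that rose was BZO2H3 (bZIP63), a bZIP factor of the starvation response (0.91 ± 0.18, adjusted p = 0.00655, edgeR). The 5 that were not tested, all bZIP factors of one group, were listed at 0 counts in all 9 libraries, and no level is drawn from that.

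**Figure D4:**
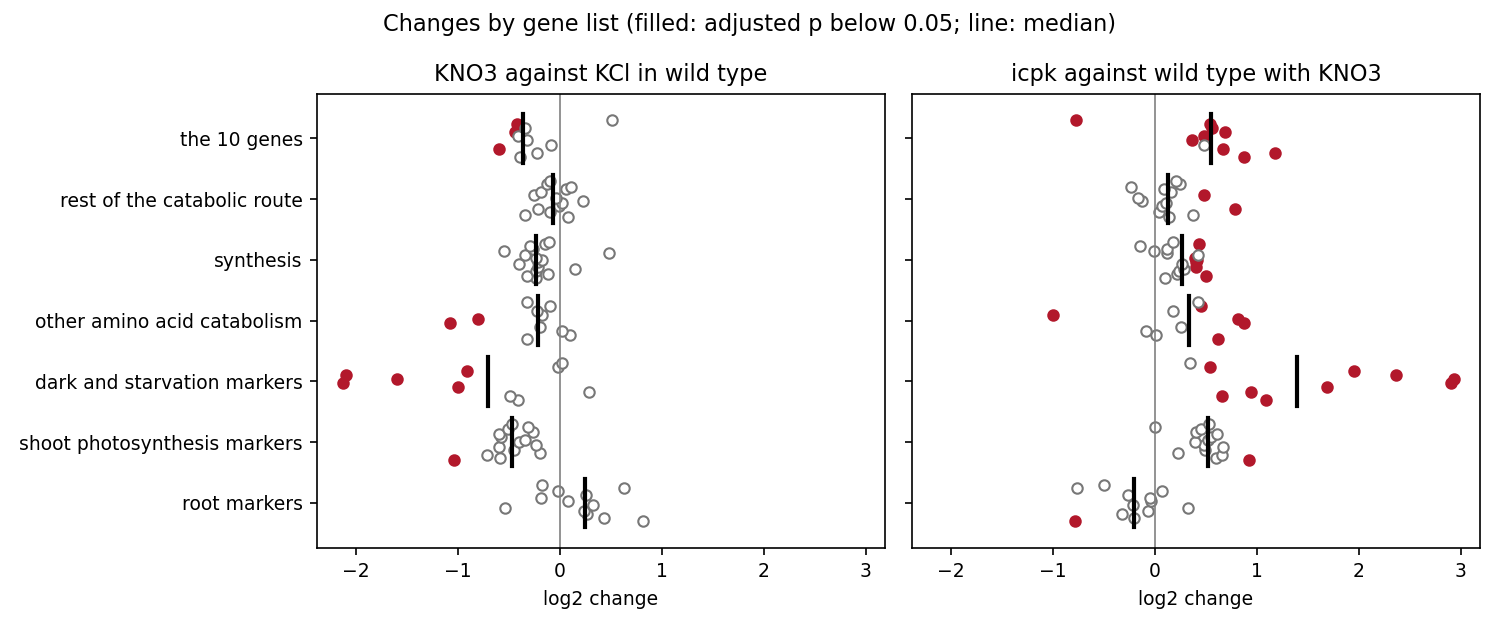
Log2 changes of single genes (points) by gene list in 2 comparisons, with filled points at an adjusted p below 0.05 and a line at the list's median. The 10 members have medians of -0.36 and 0.55, and the dark and starvation markers reach further, with medians of -0.70 and 1.39.

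The summed level of 15 photosynthesis genes of the shoot was 52472 to 63736 CPM with KCl, 32947 to 47662 with KNO3 in wild type and 46199 to 69574 in icpk. Of the 15, 1 fell with KNO3 and 1 rose in icpk against wild type KNO3 (CAB3 in both), with medians of -0.46 and 0.53. The shares over all tested genes were 2.39% and 11.3%. DESeq2 called 4 of the 15 lower and 11 higher. CAB3 missed the test with KNO3 without any 1 KCl library, KNO3 replicate 1 or 3 or icpk replicate 1. In icpk it missed without replicate 1 or 3 of either KNO3 group. Without icpk replicate 2, 8 of the 15 rose in icpk. Without wild type KNO3 replicate 2, 4 rose in icpk and 3 fell with KNO3, beside 2348 and 1231 of all tested genes. The summed level of 12 root genes was 3737 to 4334, 2506 to 3485 and 3086 to 3900 CPM in the same order. PYK10 supplied 88.8% to 95.3% of that sum, and without it the other 11 root genes summed to 189 to 223, 211 to 281 and 179 to 229 CPM. PYK10 had a log2 change of -0.54 with KNO3 in wild type (adjusted p = 0.138, edgeR), against a list median of 0.25. The list median in icpk against wild type KNO3 was -0.21. By edgeR, 1 of the 12 was lower in icpk (EXPA7) and 0 were higher, beside 11.4% and 11.3% of all tested genes. With KNO3 in wild type, 0 of the 12 passed edgeR. In icpk, EXPA7 missed without any 1 KCl library or replicate 1 or 3 of either KNO3 group (edgeR adjusted p from 0.0532 to 0.148). Without icpk replicate 2, 3 root genes fell in icpk. Every marker of both lists had counts in every library. The part of these differences in the members' changes was not tested.

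The library kit does not mark strand, and 7 of the 10 members overlap a gene on the opposite strand in the RefSeq annotation. In icpk against wild type KNO3, 2 of the 7 overlapping genes in the count tables passed the test. Over all tested genes, 11.3% were higher and 11.4% were lower in this comparison. AT5G09290, which overlaps AT5G09300, was lower (-0.62 ± 0.19, adjusted p = 0.0364), at 5.54 to 7.23 CPM in wild type KNO3 and 3.46 to 4.78 in icpk. AT3G06840, which overlaps BCE2, was higher (0.66 ± 0.18, adjusted p = 0.0249), at 2.65 to 2.97 and 4.17 to 4.91 CPM. Both are less abundant than the member they overlap, and reads of the shared stretch cannot be told apart. With KNO3 in wild type the log2 changes of the 7 lay between -0.39 and 0.11.

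The authors' deposited table of the nitrate comparison has 4 members lower and none higher at an adjusted p below 0.05, against 4.23% and 4.69% of the genes with an adjusted p there. These are the same 3 and BCE2 (log2 change -0.38 in the authors' deposited table). The authors' deposited table of icpk against wild type has 9 members higher and 1 lower, against 11.5% and 11.4% of the genes with an adjusted p there, with BCDH BETA1 (0.45 in the authors' deposited table) added to the 8.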

How the data were processed

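The authors deposited raw counts per gene for each of the 9 libraries, with 5 summary rows that name no gene (26.7% to 84.3% of the records of a library) and that were left out here. Per the submitters' processing notes, TopHat, HTSeq and DESeq2 were used with build TAIR10; no source used here gives versions or a strand setting. Per the file headers, the authors' deposited comparison tables hold a p-value, an adjusted p-value, a log2 fold change, its error, a base mean signal and a test score.

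Libraries of 50 cycles were made from 0.5 µg of RNA, and groups and replicate numbers come from the sample titles. The members and lists were chosen with earlier results of these data known. Counts were TMM-scaled and filtered (filterByExpr, minimum count 10), leaving 20288 of 32678 genes, and 1 edgeR quasi-likelihood model (edgeR 4.0.16, limma 3.58.1, R 4.3.3) with a mean per group was fitted to 9 libraries. Calls have a Benjamini-Hochberg adjusted p below 0.05 over all tested genes. Standard errors, taken as the log2 change over the root of F, are approximate. Besides the members and the 3 kinases, up to 4 called genes per list were named by smallest p, and the 8 genes most like the mean member profile; AT5G09290 and AT3G06840 were named after their values were seen. Alternatives were DESeq2 1.42.0, its size factors, no filter, a replicate block, the 6 libraries of a comparison, and libraries left out. Deviations from group means of same-numbered wild type KNO3 and icpk libraries correlated at 0.179, 0.123 and 0.312. Unlike numbers of these groups correlated at -0.201 to 0.0775, but KCl replicate 2 and icpk replicate 1 reached 0.313. A pairing by number is therefore not established, and the labels do not say what the numbers share. The third libraries carry later sample numbers than the others, and the labels name no batch. Sequences and symbols are from RefSeq on TAIR10.1 (31912 identifiers matched, all 10 members among them); counts carry no coordinates, and none were converted.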

Additional observations from a re-analysis of the deposited data

How the results depend on the processing

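With the third library of every group left out, which leaves 2 per group, 1 member fell with KNO3 (176 of all genes), 3 members rose (643) and 0 fell (765) in icpk against wild type KNO3, and 0 rose against KCl, where 282 genes rose and 194 fell. Of the icpk rises, AT1G21400 (0.104), BCAT-2 (0.143), IVD (0.0600), BCE2 (0.156) and ETFQO (0.118) and the fall of AT5G09300 (0.0835) then missed the adjusted p of 0.05. MCCA, MCCB and DIN4 passed under all 15 alternatives in that comparison. DESeq2 called 791 genes lower with KNO3, against 485, and 2 members higher against KCl, as did the fit of only the 6 libraries.

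With 1 library left out, members that rose, fell and all genes that rose, fell ranged as follows. With KNO3 they were 0 to 1, 0 to 3, 473 to 846 and 125 to 1231. In icpk against wild type KNO3 they were 6 to 9, 1 to 1, 1082 to 2348 and 1379 to 2209. Against KCl they were 0 to 2, 0 to 0, 354 to 675 and 335 to 960. Directions turned for changes near 0. With 1 library left out, the log2 change with KNO3 ranged from -0.239 to 0.0557 for BCDH BETA1 (highest without KCl replicate 1) and from -0.189 to 0.296 for CPK32. In icpk against KCl it ranged from -0.0675 to 0.205 for AT1G21400 and from -0.0074 to 0.113 for ETFQO, lowest in both without icpk replicate 3. Without the third libraries, AT5G38710 was at 0.0604 with KNO3, and BCE2 at -0.0171, AT1G21400 at -0.0545 and ETFQO at -0.0407 in icpk against KCl. The causes were not tested.

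The replicate block changed no member's call in any of the 3 comparisons, with 3 members lower with KNO3, 8 higher and 1 lower in icpk against wild type KNO3, and 1 higher against KCl. With the block, BZO2H3 passed with KNO3 (-0.51, adjusted p = 0.0472), and DIN10 (0.0639) and CAB3 (0.0585) did not; no call of another named gene changed. Same-numbered libraries of KCl and either KNO3 group correlated at -0.222 to 0.300 in their deviations from group means, and no pairing is drawn from this. Depth limits the values of the shallow KCl replicate 3 and of BCAT-2, with 14 to 91 counts per library.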
